A study of Mus musculus with 7 samples.

Results

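Caveolin 1 (Cav1), caveolin 2 (Cav2) and the caveolar neck ATPase EHD2 (Ehd2) were examined in RNA-seq libraries of the retinal pigment epithelium (RPE), the pigmented layer behind the photoreceptors, of aged mice. The 3 genes were taken by symbol from the 21861 rows of the deposited count table, and all 3 were measured. Cav2 was selected on its measured counts, which were lower in the AAV-GSTA4 than in the AAV-GFP libraries, so its group difference is a description and carries no test. Cav1 and Ehd2 were included as its coat partners, with earlier results of these data known. The control group comprised 3 libraries from RPE given an adeno-associated virus (AAV) carrying GFP. The other group comprised 4 libraries from RPE given AAV carrying GSTA4, a glutathione transferase that conjugates lipid aldehydes. All tissue was aged and was collected 12 weeks after vector treatment, and the comparison shows how vector GSTA4 differed from vector GFP in this tissue. The exact age, the vector promoter and whether eyes were pooled are not given in the sources used here, so p-values measure the spread between these libraries, which may be technical in part.

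Caveolae are flask-shaped pits of the plasma membrane that buffer membrane tension, take up cargo and gather signalling proteins. Their coat is built from caveolins, which insert into the inner leaflet, and cavins, which assemble around them from the cytosol. CAV1 is needed for caveolae outside muscle, CAV2 assembles with CAV1 and depends on it to reach the cell surface, and CAV3 is the muscle form. EHD2 oligomerises at the neck of the pit and holds it at the membrane, and PACSIN proteins bend the neck. In the eye, caveolins are known from the RPE, Müller glia and vascular cells.

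Cav2 (ENSMUSG00000000058.6) and Cav1 (ENSMUSG00000007655.16) stand in tandem on the plus strand of mouse chromosome 6 (GRCm38), at chr6:17281185-17289115 and chr6:17306335-17341452. The end of Cav2 lies 17220 bases from the start of Cav1. The annotation places a minus-strand transcript, Gm15581, across both genes at chr6:17206823-17385604. The library kits do not mark strand, so reads from Gm15581 could not be told apart from caveolin reads. Gm15581 had no row in the count table. Ehd2 (ENSMUSG00000074364.6) lies on the minus strand at chr7:15946958-15967567, and no other annotated gene overlaps it. The 250 bases before the first RefSeq start of each caveolin gene (GRCm38.p6, plus strand) are shown because both genes had lower levels in the same libraries. Capitals mark GC boxes (GGGCGG) and AP-1 motifs (TGANTCA), searched on both strands.
Cav2, chr6:17280935-17281184: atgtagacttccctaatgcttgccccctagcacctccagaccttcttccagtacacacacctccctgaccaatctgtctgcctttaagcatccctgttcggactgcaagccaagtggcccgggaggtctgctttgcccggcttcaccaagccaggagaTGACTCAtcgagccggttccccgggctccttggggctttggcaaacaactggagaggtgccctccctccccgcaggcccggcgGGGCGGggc
Cav1, chr6:17306085-17306334: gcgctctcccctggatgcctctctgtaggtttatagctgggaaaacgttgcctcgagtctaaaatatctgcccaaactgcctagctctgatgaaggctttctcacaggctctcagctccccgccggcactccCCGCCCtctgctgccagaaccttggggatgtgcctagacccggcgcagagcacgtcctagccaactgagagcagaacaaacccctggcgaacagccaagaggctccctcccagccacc
Both windows held 1 GC box, beginning 9 bases before the Cav2 start and 118 bases before the Cav1 start, a motif present in 32.7% of 32851 windows of the same length. The Cav2 window also held 1 AP-1 motif, 92 bases before the start, which 6.75% of windows hold. It had a CCAAT box 182 bases before the start (CCAAT, in 33.8% of windows). The Cav1 window had TATAAA on the minus strand only, opposite to the gene and printed as tttata, 221 bases before its start. On either strand, 12.4% of windows hold TATAAA. Neither window held the antioxidant response core TGACNNNGC (10.2% of windows), the TEAD motif GGAATG (12.6%), the E-box CACGTG (6.02%) or a CArG box (1.47%). A second RefSeq start of Cav1, inside the gene, had none of these motifs in its window at chr6:17307390-17307639. The matches did not overlap one another, and a match shows only that the letters are present.

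The libraries held 15329181 to 28998964 counts. AAV-GFP replicate 3 stood apart, with a mean correlation of log2 CPM of 0.838 with the other libraries against 0.910 or more for each of the other 6, and a TMM scaling factor of 1.36 against 0.868 to 1.05. Levels are given as CPM, read counts scaled to library size and to this trimmed-mean (TMM) factor. RPE marker genes were abundant in every library: the 12 listed markers summed to 70504, 55216 and 22952 CPM in AAV-GFP replicates 1 to 3 and to 60853 to 109604 CPM in AAV-GSTA4. Of them 10 were higher and 2 lower in AAV-GSTA4, with 2 higher without overlap (6.44% of all genes tested). The log2 sum correlated with log2 CPM of Cav1 at r = -0.718, of Cav2 at -0.500 and of Ehd2 at -0.768. These values include the group difference, and the part of RPE content in the 3 genes was not tested. The transgene row hGSTA4 had 3, 1 and 1 counts in the AAV-GFP group, against 4209, 5239, 45 and 1184 counts in AAV-GSTA4 (replicates 1 to 4), so it separated the groups. AAV-GFP replicate 1 had only 4.61 CPM of the d2EGFP row, below the 8.58 CPM of AAV-GSTA4 replicate 1, so the GFP row did not separate them. Of 15075 genes tested, 0 (0%) passed an adjusted p of 0.05 in edgeR's quasi-likelihood test, with 1794 at an unadjusted p under 0.05, and DESeq2 called 201 and limma-voom 0. The edgeR test had little power for 2-fold changes. In simulated counts, 0 of 200 genes changed 2-fold passed it, against 145 of 200 changed 4-fold and 187 of 200 changed 8-fold. The hGSTA4 row, at a log2 fold change of 10.7, had an adjusted p of 0.363 in it. This was the smallest adjusted p of the fit, and other genes shared it. The hGSTA4 row passed when AAV-GSTA4 replicate 3, with 45 counts of it, was left out.

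Cav1, the scaffold of the coat, was the member with the clearest separation between groups. It measured 53.5, 41.3 and 66.0 CPM in AAV-GFP replicates 1, 2 and 3. In AAV-GSTA4 replicates 1 to 4 it measured 22.1, 19.0, 15.7 and 30.8 CPM. Every AAV-GSTA4 library lay below every AAV-GFP library, and the gap between the nearest libraries ran from 30.8 to 41.3 CPM. Group means were 53.6 CPM ± 12.3 (SD, n = 3) and 21.9 CPM ± 6.51 (SD, n = 4), and the fitted level was 2.45-fold higher in AAV-GFP. On the log2 scale AAV-GSTA4 differed from AAV-GFP by -1.29 ± 0.28 (SE, adjusted p = 0.363 in edgeR's quasi-likelihood test), so Cav1 did not pass. DESeq2 gave an adjusted p of 0.0127, past the threshold, and the adjusted p ranged from 0.0127 to 0.848 over all alternatives. Without AAV-GFP replicate 3 the log2 fold change was -1.11, with an adjusted p of 0.313 in edgeR's test. Groups did not overlap, with AAV-GSTA4 lower, for 5.61% of all genes tested. Cav1 varied with Cav2 (r = 0.797 for deviations from the group means), and Cav2 was chosen for being lower. The p-values of Cav1 are therefore not independent of that choice.

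Cav2, the partner of CAV1 in the hetero-oligomer, was selected for its direction. It measured 68.2, 32.3 and 46.9 CPM in AAV-GFP replicates 1 to 3 and 26.0, 17.9, 12.9 and 29.8 CPM in AAV-GSTA4 replicates 1 to 4. The groups did not overlap here either, but AAV-GFP replicate 2, at 32.3 CPM, was close to AAV-GSTA4 replicate 4, at 29.8 CPM. The means were 49.1 CPM ± 18.1 (SD, n = 3) and 21.6 CPM ± 7.66 (SD, n = 4), and the log2 fold change was -1.18 ± 0.34 (SE), a 2.27-fold higher level in AAV-GFP. AAV-GFP replicate 1 had the highest Cav2 level of the series, and without it the log2 fold change was -0.86.

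Ehd2, which stabilises the caveolar neck, overlapped between groups. It measured 11.3, 16.9 and 21.3 CPM in AAV-GFP replicates 1 to 3. In AAV-GSTA4 replicates 1 to 4 it measured 5.79, 15.1, 3.88 and 12.4 CPM. AAV-GSTA4 replicates 2 and 4 lay within the AAV-GFP range and replicates 1 and 3 below it. The highest AAV-GSTA4 library was 3.90 times the lowest, against 1.97 times for Cav1 and 2.31 times for Cav2. Its log2 fold change was -0.82 ± 0.47 (SE, adjusted p = 0.502 in edgeR's test), and it was -0.56 without AAV-GSTA4 replicate 3. The lowest count of any member in a library was 66, for Ehd2 in AAV-GSTA4 replicate 3, or 3.36 CPM of the library total (95% Wilson interval 2.64 to 4.28, counting error only). That interval is narrower than the range of Ehd2 between libraries.

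**Figure D1:**
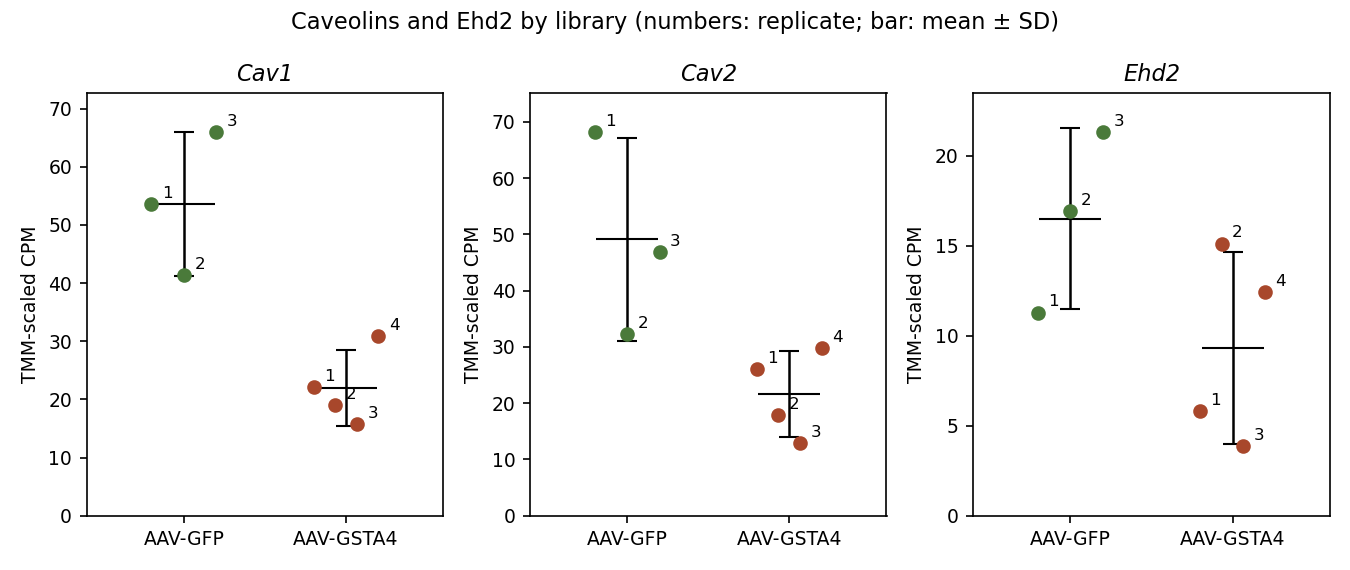
TMM-scaled CPM (vertical axes, from 0) of Cav1, Cav2 and Ehd2 in each library, with points numbered by replicate and bars giving mean ± SD of 3 AAV-GFP and 4 AAV-GSTA4 libraries. The groups are apart for Cav1 (15.7 to 30.8 against 41.3 to 66.0 CPM) and narrowly for Cav2, and they overlap for Ehd2.

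Per kilobase of merged exons, the ratio of Cav1 to Cav2 was 0.759, 1.24 and 1.36 across the AAV-GFP libraries (replicates 1 to 3) and 0.821, 1.03, 1.18 and 1.003 across the AAV-GSTA4 libraries (replicates 1 to 4). Replicate 1 was the lowest library of each group and the AAV-GSTA4 range lay inside the AAV-GFP range. Deviations of log2 CPM from the group means correlated at Pearson r = 0.797 between Cav1 and Cav2, at 0.485 between Cav1 and Ehd2 and at 0.181 between Cav2 and Ehd2. These describe 7 libraries that share their depth, scaling and tissue makeup, with no test. Within AAV-GSTA4, replicate 3 had the least hGSTA4 (2.64 CPM, against 43.7 to 251 CPM) and also the lowest level of each of the 3 genes. Replicate 4, next lowest in hGSTA4 at 43.7 CPM, had the highest Cav1 (30.8 CPM) and Cav2 (29.8 CPM) of the group, with Ehd2 at 12.4 CPM.

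On the same scale, the caveolins lay in the range of the cavins in AAV-GFP. Mean levels there were 15.6 ± 3.58 CPM per kilobase for Cav1, 14.7 ± 5.42 for Cav2 and 3.22 ± 0.98 for Ehd2 (SD, n = 3). In AAV-GSTA4 they were 6.36 ± 1.89, 6.49 ± 2.30 and 1.82 ± 1.04 (SD, n = 4). Cav1 and Cav2 did not differ beyond their spread in either group, and Ehd2 was below both caveolins in all 7 libraries. Cavin1, which encodes the cavin needed for coat assembly, was at 12.6 ± 2.89 in AAV-GFP (SD, n = 3) and 13.5 ± 5.85 CPM per kilobase in AAV-GSTA4 (SD, n = 4). The level of Cavin1 per kilobase was 0.810, 1.29 and 0.508 times that of Cav1 in AAV-GFP replicates 1 to 3. It was 2.14, 1.18, 2.86 and 2.33 times in AAV-GSTA4 replicates 1 to 4. Only AAV-GSTA4 replicate 2 lay within the AAV-GFP range of this ratio. Among the other EHD genes, Ehd3 (11.8 ± 3.51), Ehd4 (9.84 ± 0.86) and Ehd1 (7.24 ± 0.89) were each above Ehd2 in AAV-GFP (CPM per kilobase, SD, n = 3). Pacsin2 had the highest level of the coat genes in AAV-GFP, at 39.7 ± 14.4 CPM per kilobase (SD, n = 3).

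**Figure D2:**
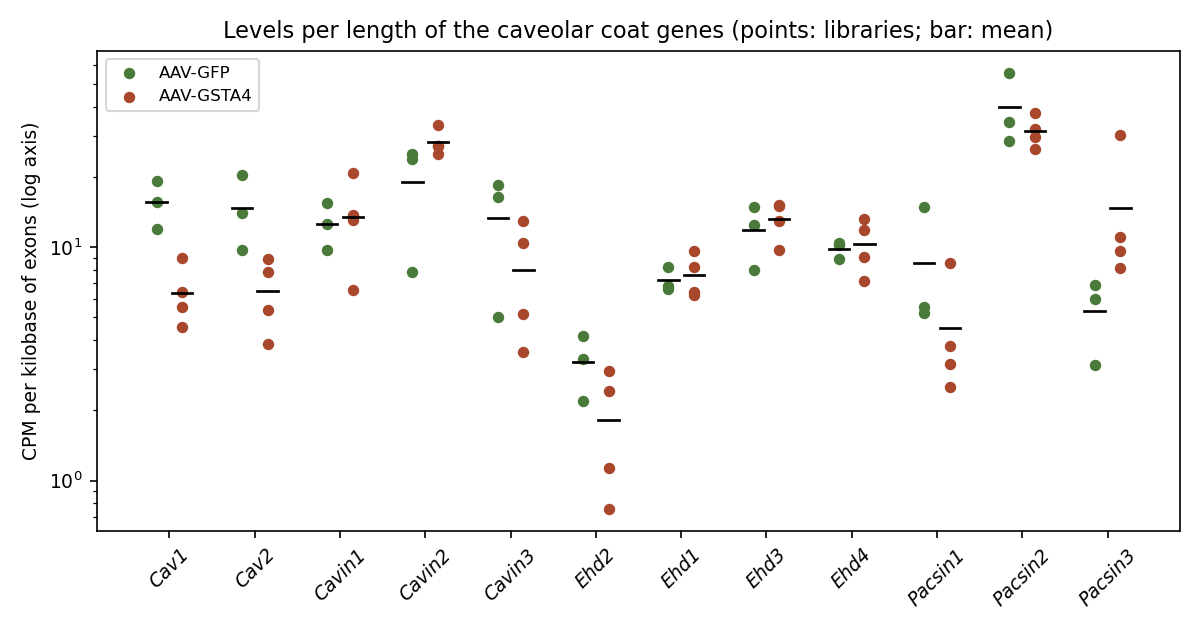
Levels in CPM per kilobase of merged exons (vertical log axis) of 12 caveolar coat genes, with 1 point per library and a bar at the group mean. The Cav1 and Cav2 points of AAV-GSTA4 (3.86 to 8.96) lie below those of AAV-GFP (9.68 to 20.5), whereas the Cavin1 points of the groups overlap.

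None of the other coat genes was lower at an unadjusted p under 0.05 in edgeR's test. Of 11 such genes listed, Cav3 and Cavin4, the muscle-enriched forms, had too few counts to be tested, with at most 9 counts of Cav3 and 23 of Cavin4 in any library. Of the 9 tested, 6 had a positive and 3 a negative log2 fold change, and their median was 0.07, against -0.07 for all genes tested. At an unadjusted p under 0.05 there were 1 higher and 0 lower, where 11.9% of all genes reached that level, 5.27% higher and 6.63% lower. After adjustment 0 passed in edgeR's test. Without AAV-GFP replicate 3 the split at the unadjusted level was 0 higher and 1 lower (Cavin3).

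The cavin genes had log2 fold changes of either sign, and 0 of the 3 tested passed. Cavin1, the core cavin, measured 45.2, 55.6 and 34.9 CPM in AAV-GFP replicates 1 to 3 and 49.0, 23.4, 46.7 and 74.7 CPM in AAV-GSTA4 replicates 1 to 4, with the groups overlapping widely. Its log2 fold change was 0.10 ± 0.35 (SE, adjusted p = 0.932 in edgeR's test), and the sign turned with library totals, to -0.17. Cavin2, whose product shapes the membrane of the pit, measured 72.9, 76.8 and 23.9 CPM in AAV-GFP and 82.5, 82.9, 102 and 76.3 CPM in AAV-GSTA4. AAV-GFP replicate 3 was low, and only AAV-GSTA4 replicate 4, at 76.3 CPM, lay within the range of the other AAV-GFP libraries. The log2 fold change of Cavin2 was 0.57 ± 0.36 (SE, adjusted p = 0.543), and without AAV-GFP replicate 3 it was 0.20. Cavin3 had a log2 fold change of -0.73 ± 0.53 (SE, adjusted p = 0.600), and its AAV-GFP values of 30.7, 27.3 and 8.31 CPM spanned those of AAV-GSTA4 replicates 1, 2 and 4. Without AAV-GFP replicate 3, the low library of its group, Cavin3 was at -1.11 with an adjusted p of 0.381 in edgeR's test.

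The paralogs of Ehd2 lay near 0, with log2 fold changes of 0.07 ± 0.24 for Ehd1, 0.17 ± 0.27 for Ehd3 and 0.07 ± 0.25 for Ehd4 (SE; adjusted p from 0.833 to 0.936 in edgeR's test). With library totals these 3 values were negative, from -0.23 to -0.17. EHD1, EHD3 and EHD4 serve endosomal recycling more than caveolae. Among the PACSIN genes, Pacsin3 was the coat gene with the largest positive value. It measured 25.9, 29.7 and 13.6 CPM in AAV-GFP and 47.7, 131, 41.6 and 35.2 CPM in AAV-GSTA4 replicates 1 to 4. Every AAV-GSTA4 library lay above every AAV-GFP library, a separation in the higher direction shared by 6.44% of all genes tested. The log2 fold change of Pacsin3 was 1.47 ± 0.49 (SE, adjusted p = 0.363), and it was 0.86 without AAV-GSTA4 replicate 2. Pacsin1, a neuronal form, was at -0.93 ± 0.49 (SE, adjusted p = 0.477) and rested on AAV-GFP replicate 3, without which it was -0.26. Pacsin2, the broadly expressed form, was at -0.34 ± 0.27 (SE, adjusted p = 0.636).

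**Figure D3:**
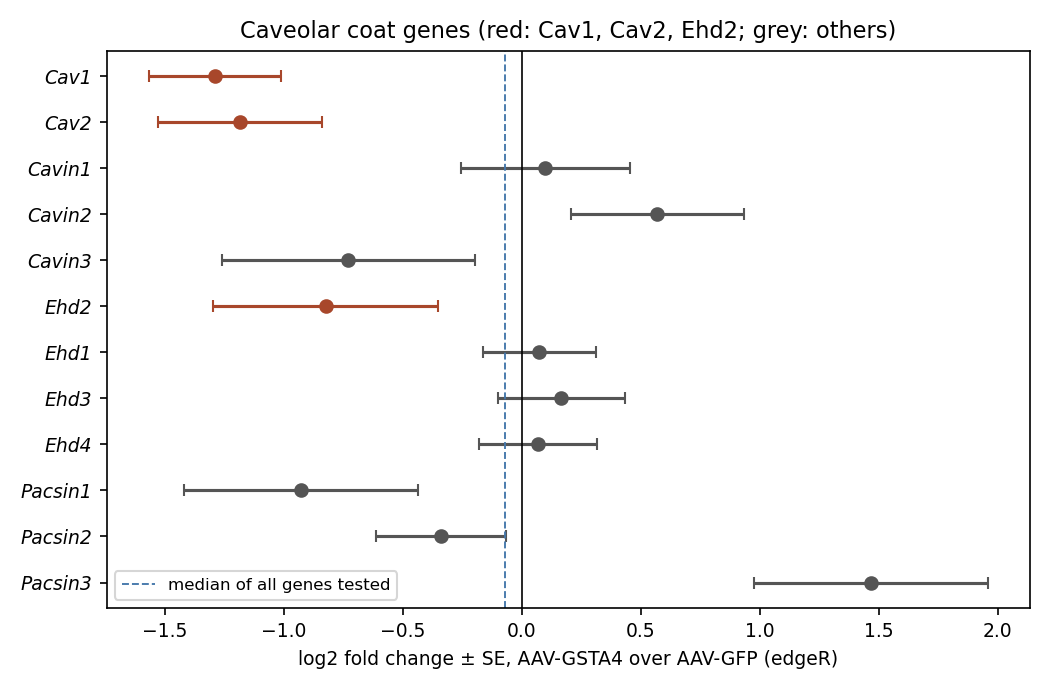
Log2 fold change of AAV-GSTA4 over AAV-GFP with its SE (horizontal axis, edgeR) for 12 caveolar coat genes, with Cav1, Cav2 and Ehd2 in red. Cav1 (-1.29) and Cav2 (-1.18) lie left of every other coat gene shown, the remaining cavins and EHD genes lie between -0.82 and 0.57, and Pacsin3 is at 1.47.

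A list of 32 genes for proteins that reside in, signal from or act on caveolae was described in the same way. All 32 were tested: 19 had positive and 13 negative log2 fold changes, with a median of 0.12. At an unadjusted p under 0.05, 3 were higher and 0 lower (9.38% of the list, against 11.9% of all genes tested), and 0 passed after adjustment. With library totals the split was 1 higher and 4 lower, and without AAV-GFP replicate 3 it was 6 higher and 2 lower. The 3 genes were Flot2, a scaffold of flat membrane microdomains, at 0.76 ± 0.23, Ptgis, prostacyclin synthase, at 0.77 ± 0.28, and Ptch1, the Hedgehog receptor, at 0.83 ± 0.30 (log2 fold change ± SE; adjusted p from 0.363 to 0.375 in edgeR's test). Flot2 measured 117, 103 and 79.2 CPM in AAV-GFP and 189, 141, 160 and 184 CPM in AAV-GSTA4. Its groups did not overlap, in the direction opposite to the caveolins, and neither did those of Ptch1. They were the 2 genes of the list that were higher with no overlap, and 0 were lower. Of all genes tested, 6.44% were higher and 5.61% lower with no overlap.

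The clathrin route, the other main path of coated-pit uptake, was represented by 25 genes, all tested. It had 1 gene higher and 3 lower at an unadjusted p under 0.05 (16% of the list, against 11.9% of all genes tested), 0 after adjustment, and a median log2 fold change of -0.01. With library totals the split was 0 higher and 7 lower, and without AAV-GFP replicate 3 it was 1 higher and 1 lower. The higher gene was Cltb, a clathrin light chain (0.72 ± 0.27). The lower genes were Synj1, an uncoating phosphatase (-1.01 ± 0.34), Ap2a2, an adaptor subunit (-0.996 ± 0.35), and Dnm1, the neuronal dynamin (-1.02 ± 0.45), each as log2 fold change ± SE. These 3 had their highest value in AAV-GFP replicate 3, the library with the most rod RNA, and without it they were at -0.49, -0.42 and -0.38. Adjusted p-values of these 4 genes ranged from 0.363 to 0.411 in edgeR's test.

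The tested genes nearest the caveolin pair on each side had higher means in AAV-GSTA4. Tes, the nearest tested gene on the Cav2 side, 175357 bases away, measured 375, 257 and 118 CPM in AAV-GFP and 394, 345, 590 and 529 CPM in AAV-GSTA4. Met, the receptor for hepatocyte growth factor, 122348 bases beyond Cav1, measured 440, 317 and 128 CPM in AAV-GFP and 605, 437, 601 and 528 CPM in AAV-GSTA4. Both had positive log2 fold changes, 0.89 ± 0.39 and 0.88 ± 0.39 (SE, adjusted p = 0.412 and 0.413 in edgeR's test), with overlapping groups. Farther out, Tfec was at -1.41 ± 0.92, Mdfic at -0.32 ± 0.36, Capza2 at 0.06 ± 0.36 and St7 at -0.56 ± 0.43 (log2 fold change ± SE; adjusted p of 0.556 or more in edgeR's test). Around Ehd2, the 6 nearest tested genes ranged from -1.24 ± 0.68 for Crxos to 0.80 ± 0.66 for Bicra (log2 fold change ± SE), and Nop53, 884 bases away, was at 0.12 ± 0.29.

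The genes whose log2 CPM over the 7 libraries was most like each member were ranked among the 11469 genes whose log2 CPM averaged 2 or more. For Cav1 they were Fam110a (Pearson r = 0.986), Kbtbd11 (0.975), Nrip1 (0.970), Irf7 (0.967) and Cnmd (0.967). For Cav2 they were Alcam (0.980), Immp2l (0.976), Pcdh19 (0.966), Syt4 (0.965) and Fndc10 (0.961). The 2 caveolin lists shared no gene. Cav2 ranked 30 for Cav1, and Cav1 ranked 27 for Cav2, both at r = 0.925, a value that includes the group difference for which Cav2 was chosen. For Ehd2 they were Asb3 (0.977), Krt5 (0.967), Egln3 (0.966), Tgm2 (0.963) and Pdlim4 (0.960), and Cav1 ranked only 725. These values are descriptions over 7 libraries with shared depth and makeup.

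Krt5, a basal keratin of the ocular surface epithelium, was among the genes most like Ehd2, so a list of 8 ocular surface genes (Krt5, Krt14, Krt12, Krt15, Krt13, Trp63, Dsg3 and Aldh3a1) was drawn up after these values were seen. Their summed level was 770, 779 and 772 CPM in AAV-GFP replicates 1 to 3. It was 73.5, 741, 89.7 and 831 CPM in AAV-GSTA4 replicates 1 to 4. Single genes were less even than their sum in AAV-GFP. Over replicates 1 to 3, Krt15 was at 500, 502 and 252 CPM and Krt12 at 2.56, 19.9 and 112 CPM. AAV-GSTA4 replicates 1 and 3, low in this sum, were the libraries low in Ehd2 (5.79 and 3.88 CPM), and replicates 2 and 4 were at 15.1 and 12.4 CPM. All 8 genes had negative log2 fold changes and 0 of 8 separated the groups. Of all genes tested, 55.4% had negative values and 12% separated the groups in either direction. The list began from a gene picked for its likeness to Ehd2 over these same libraries, so its match with Ehd2 is a description only. In AAV-GSTA4 replicates 1 and 3, Cav1 was 22.1 and 15.7 CPM and Cav2 26.0 and 12.9 CPM, and in replicates 2 and 4 Cav1 was 19.0 and 30.8 CPM and Cav2 17.9 and 29.8 CPM. The part of ocular surface RNA in the levels of the 3 genes was not tested.

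Rod photoreceptor genes also moved with the groups. All 10 rod markers had negative log2 fold changes, 7 of them with no overlap between groups, where 55.4% of all genes tested had negative values and 5.61% were lower with no overlap. The lowest rod sum in AAV-GFP was above the highest in AAV-GSTA4. The sums were 13679, 22634 and 37493 CPM in AAV-GFP replicates 1 to 3 and 12820, 11200, 11831 and 6892 CPM in AAV-GSTA4 replicates 1 to 4. Over the 7 libraries the log2 rod sum correlated with log2 CPM of Cav1 at r = 0.634, of Cav2 at 0.403 and of Ehd2 at 0.471, values that include the group difference and are given as a description. The nearest rod sums across groups were those of AAV-GFP replicate 1 and AAV-GSTA4 replicate 1. In this pair Cav1 was 53.5 and 22.1 CPM, Cav2 68.2 and 26.0 CPM and Ehd2 11.3 and 5.79 CPM. The pair also differed in ocular surface sum (770 and 73.5 CPM), fibroblast marker sum (967 and 348 CPM) and summed Y-linked transcripts (465 and 0.158 CPM). The part of rod RNA in the levels of the 3 genes was not tested. In bulk tissue, fewer cells of a type and less RNA per cell cannot be told apart.

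The summed levels of vascular and stromal markers, which caveolins accompany in many tissues, overlapped between groups. The 12 endothelial markers, all detected in every library, summed to 37.3, 50.4 and 176 CPM in AAV-GFP and to 40.4 to 57.6 CPM in AAV-GSTA4, with 10 of 12 log2 fold changes negative. The other 2, Tek and Robo4 (5, 6 and 6 Robo4 counts in AAV-GFP), were higher in AAV-GSTA4 with no overlap. Of all genes tested, 6.44% were higher with no overlap. The high sum of AAV-GFP replicate 3 set the group difference: the log2 ratio of means was -0.83 with it and 0.17 without it. Over the 7 libraries the log2 endothelial sum correlated with log2 CPM of Cav1 at r = 0.506, of Cav2 at 0.274 and of Ehd2 at 0.516. These values include the group difference and are a description. AAV-GFP replicate 1, with Cav1 at 53.5 CPM, had the lowest endothelial and the highest fibroblast sum of the series. The 10 mural markers, for pericytes and smooth muscle, summed to 192 to 394 CPM in AAV-GFP and 326 to 461 CPM in AAV-GSTA4. Of these, 6 log2 fold changes were negative and 4 positive, and only Pdgfrb separated the groups, higher in AAV-GSTA4. The 8 fibroblast markers summed to 185 to 967 CPM and 306 to 645 CPM. The 8 Müller glia markers summed to 2275 to 3606 CPM in AAV-GFP and 3539 to 4486 CPM in AAV-GSTA4, with 5 of 8 log2 fold changes negative. That sum rested on Car14, which was at 1545 and 2973 CPM on average. Without Car14 the means were 1302 ± 216 CPM (SD, n = 3) and 1079 ± 352 CPM (SD, n = 4). Slc1a3 (-1.43) and Crb1 (-0.95) were lower at an unadjusted p under 0.05 in edgeR's test, as were 6.63% of all genes tested, with 0 passing after adjustment. Slc1a3 was at 139 CPM in AAV-GFP replicate 3, against 36.8 and 23.6 CPM in replicates 1 and 2. At that level macrophage and microglia markers had 2 lower and 1 higher, and lens markers 0 lower and 4 higher. Endothelial, mural and Schwann cell markers each had 0 lower and 1 higher, and fibroblast and skeletal muscle markers 0 in either direction. Macrophage and microglia markers summed to 282 to 445 CPM and 436 to 705 CPM (7 of 8 negative), and without Csf1r the means were 182 ± 25.2 CPM (SD, n = 3) and 135 ± 22.4 CPM (SD, n = 4). Ranges for the remaining lists are given with AAV-GFP first. They were, for skeletal muscle markers, 41.7 to 103 CPM and 24.4 to 94.6 CPM (8 of 8 negative), for Schwann cell markers 41.5 to 65.7 CPM and 46.1 to 129 CPM, and for lens markers 1572 to 6482 CPM and 2227 to 51340 CPM. No marker was at 0 in every library. The part of these cells in the caveolin levels was not tested.

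**Figure D4:**
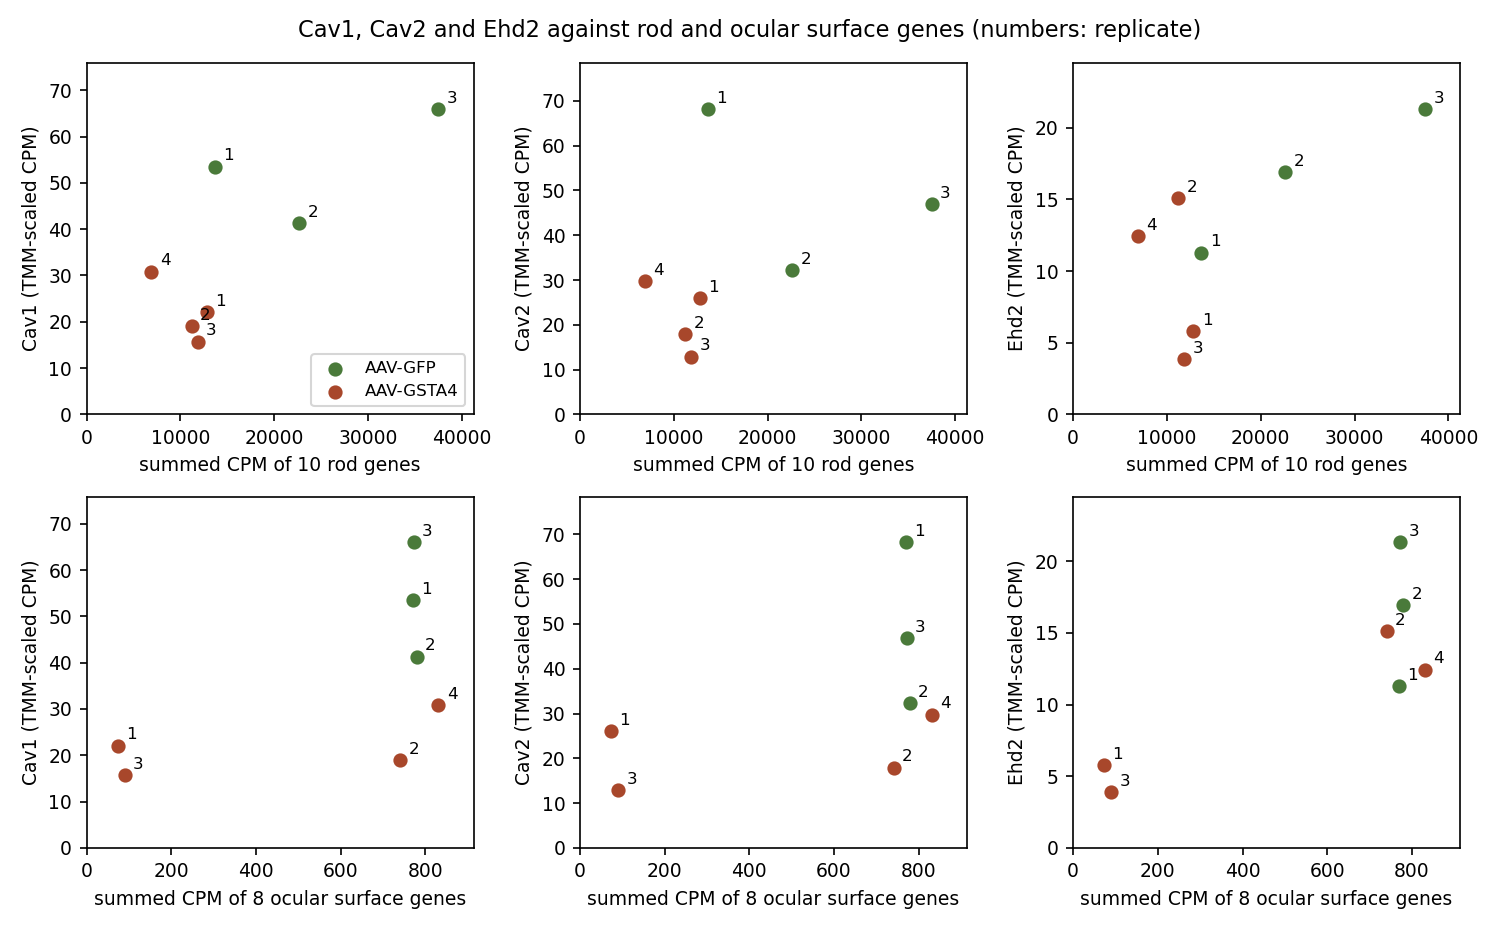
TMM-scaled CPM of Cav1, Cav2 and Ehd2 (vertical axes) against the summed CPM of 10 rod genes (upper row) and 8 ocular surface genes (lower row), 1 point per library, numbered by replicate. The rod sums of the groups do not overlap (6892 to 12820 against 13679 to 37493 CPM), and Ehd2 is lowest in AAV-GSTA4 replicates 1 and 3, where the ocular surface sum is below 100 CPM.

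Transcripts of 4 Y-linked genes summed to over 100 CPM in 1 AAV-GFP library (replicate 1) and 2 AAV-GSTA4 libraries (replicates 3 and 4) and were at 2.83 CPM or less in the other 4 libraries, so values were also set side by side within these classes, which were drawn after the data were seen. With Y-linked transcripts, Cav1 was 53.5 CPM in AAV-GFP against 15.7 and 30.8 CPM in AAV-GSTA4, and Cav2 was 68.2 CPM against 12.9 and 29.8 CPM. Without them, Cav1 was 41.3 and 66.0 CPM against 22.1 and 19.0 CPM, and Cav2 was 32.3 and 46.9 CPM against 26.0 and 17.9 CPM. Ehd2 overlapped in the first class, at 11.3 CPM against 3.88 and 12.4 CPM. In the second class it was 16.9 and 21.3 CPM against 5.79 and 15.1 CPM. The groups did not overlap over all 7 libraries for Cav1 and Cav2, so they could not overlap within a class. Their separation within the classes therefore adds no information. No test was run within these classes.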

How the data were processed

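Polyadenylated RNA of 7 RPE libraries was amplified as cDNA (SMART-Seq v4) and tagmented (Nextera XT), as the labels' protocols state. These kits carry no molecular identifiers and do not mark strand, so intervals cover counting error only. The authors deposited raw read counts by gene symbol, with 24 symbols on more than 1 row and none of them a member. STAR 2.7.1a, featureCounts 1.6.2 and the builds GRCm38/mm10 and GRCh38/hg38 are named in the submitters' processing notes. Annotation, strand setting and multi-mapping rule are not given in the sources used here. GENCODE M21 gene models (GRCm38) matched 98.1% of rows and gave coordinates and merged exon lengths, and promoter windows came from RefSeq (GRCm38.p6). Columns were matched to libraries by library name, and replicates carry the numbers of the titles. All library pairs differed by more than sampling noise (chi-square per gene of at least 57.5).

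Groups were compared in edgeR 4.0.16 under R 4.3.3 (glmQLFit, glmQLFTest), with all 7 libraries, group as the only factor, TMM scaling, the default expression filter and Benjamini-Hochberg adjustment over 15075 genes at 0.05. Each SE was obtained from the fold change and the F statistic. Log2 CPM used a prior count of 2. The fit was tested on counts simulated with the means, library sizes and gene-wise spread of these data. With 200 genes changed, an adjusted p under 0.05 recovered 0 at 2-fold, 145 at 4-fold and 187 at 8-fold. A gene that changed about 2-fold was therefore unlikely to pass, and not passing does not show the absence of such a change. The members and lists were chosen with earlier results of these data known. Named were the members, every tested coat gene, in each other list up to 3 genes per direction with the smallest p among those at an unadjusted p under 0.05, the 5 most similar genes per member, the 3 nearest tested genes on each side, and the transgenes. The alternatives were 2 other scalings, 2 other filters, DESeq2 1.42.0, limma-voom (limma 3.58.1) with quality weights, a replicate block by either numbering, and each library left out. Depth per library sets a detection floor of 3 counts, 0.103 to 0.196 CPM of the total.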

Additional observations from a re-analysis of the deposited data

Results flagged for a closer look

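Within AAV-GSTA4, 23 results were examined for a single library far from the other 3, and 2 stood out, where chance gives about 1 in 20. Pacsin3 measured 131 CPM in replicate 2 against 35.2 to 47.7 CPM in the others, and its distance to the nearest was 0.869 of the whole range. The same library had the highest lens marker sum, 51340 CPM against 2227 to 12485 CPM, and the part of lens RNA in the Pacsin3 level was not tested. The summed Schwann cell markers were 129 CPM in replicate 1 against 46.1 to 57.8 CPM, with a distance to the nearest of 0.858 of the whole range. Cav1, Cav2 and Ehd2 had no such library.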

How the results depend on the processing

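Over the 15 alternatives, the log2 fold changes were negative in all 15 for Cav1 (-1.62 to -0.97), Cav2 (-1.45 to -0.86) and Ehd2 (-1.28 to -0.56). Leaving out 1 library at a time gave -1.48 to -1.11, -1.41 to -0.86 and -1.16 to -0.56. Cav1 passed only in DESeq2 (-1.27, adjusted p = 0.0127), and the adjusted p of Ehd2 ranged from 0.286 to 0.865. With library totals the median of all genes moved from -0.07 to -0.37. Relative to that median, Cav1 was at -1.22 with TMM and -1.24 with library totals, Cav2 at -1.11 and -1.08, and Ehd2 at -0.75 and -0.80. The number of genes past the adjusted threshold was 201 in DESeq2 and 0 to 1 with 1 library left out (the 1 gene was hGSTA4, with replicate 3 of AAV-GSTA4 left out). At an unadjusted p under 0.05 the other coat genes numbered 2 with library totals, limma-voom and the block by title number, and 1 to 2 with 1 library left out. Partner genes numbered 5 with library totals, a minimum of 10 counts and DESeq2, 6 in limma-voom and 1 to 8 with 1 library left out. Clathrin genes numbered 7 with library totals and 1 to 4 with 1 library left out. The cause was not tested.

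Same-numbered libraries did not deviate together (r of deviations from -0.09 to 0.01 by title number and from -0.13 to 0.01 by library-name number), so the numbers were not used for pairing. With a replicate block 1 gene passed in either numbering, partner genes numbered 1 and 3, clathrin genes 1 and 1, and Cav1 was at -1.49 and -1.26, by title and by library-name number.

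The log2 fold changes of 9 coat and neighbouring genes turned sign in at least 1 alternative. With library totals Cavin1 was at -0.17, Ehd1 at -0.22, Ehd3 at -0.17, Ehd4 at -0.23, Capza2 at -0.17 and Nop53 at -0.20. In limma-voom Ehd1 was at -0.11, Nop53 at -0.10 and Zfp541 at 3.88. With the block by title number Cavin1 was at -0.23, Ehd4 at -0.048 and Zfp541 at 0.79, and by library-name number Nop53 was at -0.11 and Zfp541 at 0.80. With 1 library left out the ranges were -0.16 to 0.34 for Cavin1, -0.038 to 0.18 for Ehd1, -0.044 to 0.38 for Ehd3, -0.057 to 0.22 for Ehd4, -0.63 to 0.25 for Mdfic, -1.997 to 0.048 for Tfec, -0.26 to 0.50 for Capza2, -0.12 to 0.27 for Nop53 and -1.51 to 6.198 for Zfp541. None of these genes passed in any of these fits.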
